A study of Mus musculus with 30 samples.

Results

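Messenger RNA of 7 cholesterol synthesis enzymes (Hmgcs1, Idi1, Fdft1, Sqle, Lss, Cyp51 and Dhcr7) was measured in the brains of 30 mice that carried 2, 1 or 0 intact copies of Tmem106b. The 7 were taken by gene name from a table of 34871 genes, and all 7 were among the 23695 genes with a mean log2 value above 0 that entered the test. They had been grouped under the heading of cholesterol synthesis and uptake, but 0 of the 7 encode a lipoprotein receptor or sterol carrier, so they are described here as synthesis enzymes, and uptake genes are given as a separate list.

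The groups were 10 wild-type mice (Tmem106b+/+, WT), 10 heterozygotes (Tmem106b+/-, HET) and 10 mice without an intact copy (Tmem106b-/-, KO), all 8 months old. Each group held 5 females and 5 males, 6 mice labelled cohort 1 and 4 labelled cohort 2, and each sample is a separate mouse whose cerebral hemispheres were extracted as a whole. Tmem106b encodes a membrane protein of lysosomes and late endosomes. The sources used here do not give the strain, how and in which cells the gene was inactivated, or what the cohort number means. Tmem106b itself stood at 9.17 ± 0.07 in WT, 8.58 ± 0.03 in HET and 7.53 ± 0.08 in KO (log2 RPKM as deposited, mean ± SD, n = 10), with no overlap between the groups. Markers of neurons were high in every brain (list mean at least 10.93), and of 6 hepatocyte genes 4 had a mean below 0 (Alb -2.28, Cyp7a1 -3.29, Fgb -3.76, Serpina1a -2.11), while Cyp8b1 stood at 0.15 and Apoa2 at 4.02. Of 5 genes of steroid-making cells, Star at 5.10 and Cyp11a1 at 3.32 were above 0.

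The brain makes nearly all of its own cholesterol, because lipoproteins of the blood do not pass the blood-brain barrier, and in the adult most of that cholesterol lies in myelin. Acetyl units are joined by Hmgcs1, isomerised as isoprenoids by Idi1, condensed to squalene by Fdft1, oxidised by Sqle, closed into lanosterol by Lss, demethylated by Cyp51 and reduced to cholesterol by Dhcr7. When membranes of the endoplasmic reticulum run low in sterol, the escort protein SCAP carries the SREBP transcription factors to the Golgi for cleavage, and the freed factors bind sterol regulatory elements in the promoters of these genes, often with NF-Y at a neighbouring CCAAT box. INSIG proteins hold SCAP back when sterol is plentiful.

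The promoters of these genes were searched for the letters of such elements. RefSeq promoter sequences (GRCm38.p6, 250 bases before to 50 after an annotated start) were matched for 5 of the 7 genes, with 7 entries in all, and Fdft1 and Sqle had no entry. The letters TCACCCCAC, a sterol regulatory element, were found on either strand in 1 of the 7 entries, that of Hmgcs1 at positions -137 to -129, against 0.551% of all 32851 promoters in the table. A looser form, TCACNCCAC, which contains the first, gave the same single entry against 1.24%. CCAAT, the NF-Y box, read as ATTGG on the opposite strand, was present in 5 of 7 entries, at least 1 for each of the 5 genes, against 37.4% of all promoters. For Dhcr7 the boxes were in the entry that begins at 143829964. Its entries that begin at 143822917 and 143823149, nearer the start of the gene at 143823145, held 0. A gene with several entries has more chances of a match than a single promoter. The E-box CACGTG was present in 1 entry of Dhcr7, against 7.15%. Parts of 4 promoters are shown on the strand of each gene, 5′ to 3′, because they hold these letters close to the start. Capitals mark the sterol regulatory element and the NF-Y boxes.
Hmgcs1, chr13:119690171-119690320, plus strand, positions -180 to -31: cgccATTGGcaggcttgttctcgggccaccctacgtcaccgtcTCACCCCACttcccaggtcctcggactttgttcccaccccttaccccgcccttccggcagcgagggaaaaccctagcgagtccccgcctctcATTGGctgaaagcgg
Idi1, chr13:8885526-8885605, plus strand, positions -80 to -1: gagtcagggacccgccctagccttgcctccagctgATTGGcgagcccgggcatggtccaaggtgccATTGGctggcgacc
Lss, chr10:76531525-76531604, plus strand, positions -80 to -1: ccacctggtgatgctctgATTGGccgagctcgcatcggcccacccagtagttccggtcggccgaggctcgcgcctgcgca
Cyp51, chr5:4104698-4104777, minus strand, positions -80 to -1: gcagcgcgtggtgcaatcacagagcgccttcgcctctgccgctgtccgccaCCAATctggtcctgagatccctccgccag
A match is a string of letters, and binding was not measured here.

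The 7 enzymes covered a wide range of levels in brain, in the same order in every mouse. On the deposited scale, which is per length of transcript, Hmgcs1 was highest with a mean of 10.04 over the 30 brains, above 97.8% of the genes tested. Fdft1 followed at 8.53, then Cyp51 at 7.87, Idi1 at 7.66, Sqle at 7.20, Dhcr7 at 6.88 and Lss at 5.64, near the middle of all genes (53.8% lower). Each gene lay above the next in 30 of 30 brains, and the closest approach was 0.07 between Cyp51 and Idi1. The deposited values were normalised for gene length and GC content, so the order is that of this scale. The deposited gene length was 10787 bases for Lss, against 2860 (Fdft1) to 5546 (Sqle) for the others. The part of length in the order was not tested.

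No difference between KO and WT passed the test for any of the 7 enzymes. With limma and Benjamini-Hochberg adjustment over all genes, 0 of 7 passed at an adjusted p under 0.05, against 1.00% of the 23695 genes tested (237 genes). At an unadjusted p under 0.05, 1 of 7 passed, against 2846 of the 23695. Fitted differences, KO minus WT, ran from -0.04 for Dhcr7 to 0.08 for Lss, with 5 above 0 and 2 below. Their median was 0.03, and that of all genes tested was 0.01. The plot of values by brain shows overlapping ranges of the 3 genotypes for each gene.

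**Figure D1:**
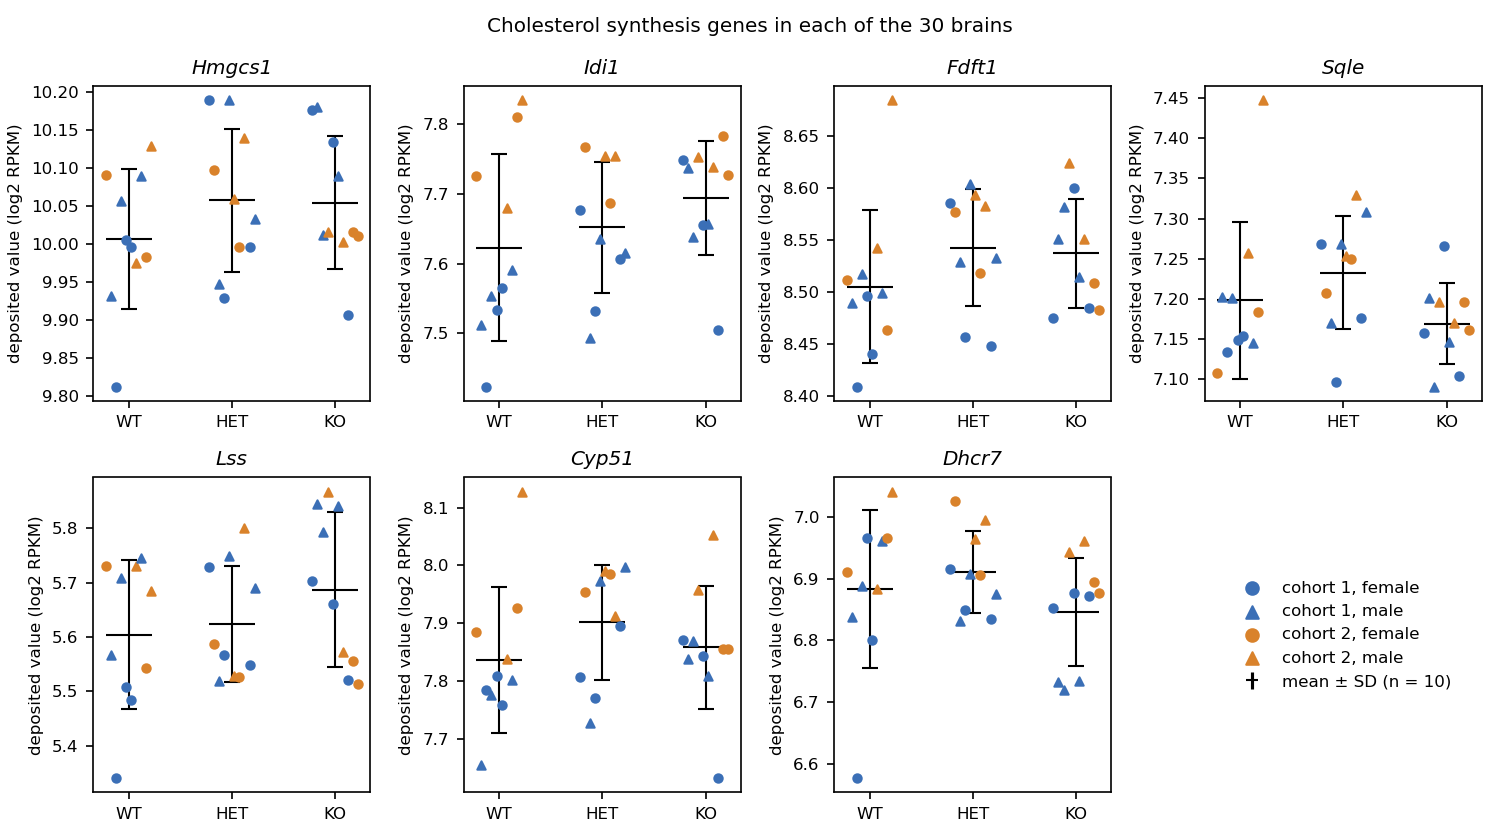
Deposited log2 RPKM values (vertical axis, a separate scale for each gene) of the 7 enzymes in each of the 30 brains by genotype, with circles for females, triangles for males, blue for cohort 1 and orange for cohort 2. Horizontal lines and bars are means and SD (n = 10), and the 3 genotypes overlap for every gene. The highest WT value of each gene except Lss comes from the same male of cohort 2, such as 7.45 for Sqle and 8.13 for Cyp51.

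Hmgcs1 (chromosome 13, 119690462 to 119708086, mm10) encodes the cytosolic synthase at the entry of the pathway. In WT its lowest, median and highest values were 9.81, 10.00 and 10.13, in HET 9.93, 10.05 and 10.19, and in KO 9.91, 10.02 and 10.18. KO brains lay within the WT range in 7 of 10 cases, and the other KO brains lay above it. The fitted difference, KO minus WT, was 0.05 ± 0.04 (log2 ± SE, 95% interval -0.04 to 0.13, limma adjusted p = 0.710).

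Idi1 (chromosome 13, 8885501 to 8892451) encodes the isomerase that supplies both building blocks of the isoprenoid chain. Its lowest, median and highest values were 7.42, 7.58 and 7.83 in WT, 7.49, 7.66 and 7.77 in HET, and 7.50, 7.73 and 7.78 in KO. All 10 KO brains lay within the WT range, and 9 of 10 lay above the WT mean. This was the 1 gene with an interval that left out 0: the difference was 0.07 ± 0.03 (0.01 to 0.13), with an unadjusted p of 0.0326 and a limma adjusted p of 0.353.

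Fdft1 (chromosome 14, 63145153 to 63177793) encodes squalene synthase, the first enzyme committed to sterols. It ran from 8.41 through a median of 8.50 to 8.68 in WT, from 8.45 through 8.56 to 8.60 in HET, and from 8.47 through 8.53 to 8.62 in KO. All 10 KO brains fell within the WT range. The difference was 0.03 ± 0.02 (-0.02 to 0.08, limma adjusted p = 0.640), the narrowest interval of the 7. Fdft1 overlaps Ctsb, the gene of cathepsin B, whose level is 10.52, and since the sources do not say whether strand was used in counting, reads of the pair may not have been told apart.

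Sqle (chromosome 15, 59315077 to 59331192) encodes squalene epoxidase, which adds the oxygen of the later sterol. The values were 7.11, 7.17 and 7.45 (lowest, median, highest) in WT, 7.10, 7.25 and 7.33 in HET, and 7.09, 7.17 and 7.27 in KO. WT and KO had nearly the same median, and 2 of 10 KO brains lay above the WT mean, which 1 high WT brain raised. The difference was -0.03 ± 0.03 (-0.09 to 0.03, limma adjusted p = 0.772).

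Lss (chromosome 10, 76531588 to 76557138) encodes lanosterol synthase, which closes the rings. Lowest, median and highest values were 5.34, 5.63 and 5.75 in WT, 5.52, 5.58 and 5.80 in HET, and 5.51, 5.68 and 5.87 in KO. In KO, 6 of 10 brains were within the WT range and the other 4 above it. The difference, 0.08 ± 0.05 (-0.02 to 0.19, limma adjusted p = 0.532), was the largest of the 7 and the least precise. Lss overlaps 4930483K19Rik, a transcript at a level of 5.12 with a KO minus WT difference of 0.08 (adjusted p = 0.787), and the same limit on strand holds.

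Cyp51 (chromosome 5, 4081145 to 4104746) encodes the cytochrome P450 that demethylates lanosterol. Values of 7.65, 7.81 and 8.13 (lowest, median, highest) were found in WT, 7.73, 7.93 and 8.00 in HET, and 7.63, 7.86 and 8.05 in KO. The difference, KO minus WT, was 0.02 ± 0.04 (-0.06 to 0.09, limma adjusted p = 0.903), and 9 of 10 KO brains were within the WT range. Dhcr7 (chromosome 7, 143823145 to 143848410) encodes the final reductase of the Kandutsch-Russell branch. It stood at 6.58, 6.90 and 7.04 (lowest, median, highest) in WT, 6.83, 6.91 and 7.02 in HET, and 6.72, 6.87 and 6.96 in KO. All 10 KO brains were within its wide WT range. Its difference was -0.04 ± 0.04 (-0.11 to 0.03, limma adjusted p = 0.724), the lowest of the 7.

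The size of change that the data exclude follows from these intervals. Over the 7 genes, every 95% interval of KO minus WT lay between -0.11 and 0.19 log2, which is between -7.50% and 13.7% of the WT level. With intervals widened to 99.8% so that the 21 differences (7 genes in 3 comparisons) are covered together, the limits were -0.16 and 0.25, or -10.4% and 18.9%. These are the extremes over the 7, set by Dhcr7 for a fall and by Lss for a rise, and most genes have tighter limits. The wider interval was -3.04% to 7.69% for Fdft1, -8.78% to 5.21% for Sqle, -10.4% to 5.67% for Dhcr7, -6.89% to 10.1% for Cyp51, -2.30% to 12.7% for Idi1, -5.86% to 13.1% for Hmgcs1 and -5.41% to 18.9% for Lss. All these limits take the genotype difference to be the same in both cohorts. In cohort 1 alone the largest 95% limit over the 7 genes was 0.29 log2, and in cohort 2 alone 0.20.

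HET brains also showed no difference from WT that passed. In limma 0 of 7 genes passed, against 0.00422% of all genes tested (1 gene), and 0 of 7 did so at an unadjusted p under 0.05, against 6.32%. All 7 fitted differences, HET minus WT, were above 0, between 0.02 for Dhcr7 and 0.05 for Cyp51, with a median of 0.03 against 0.00 for all genes. The genes share the same mice and vary together, as described further on, so 7 differences of one sign are not 7 separate observations. The 95% intervals lay between -0.08 and 0.13 (-5.18% to 9.41%), and the wider ones between -0.14 and 0.19 (-9.36% to 14.5%).

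Between KO and HET brains 0 of 7 genes passed, against 0.118% of all genes (28 genes), and 0 at an unadjusted p under 0.05, against 8.66%. The differences, KO minus HET, were above 0 for 3 genes and below for 4. The lowest p belonged to Sqle, at -0.06 ± 0.03 (unadjusted p = 0.0533, limma adjusted p = 0.585). The 95% intervals lay between -0.13 and 0.16 and the wider ones between -0.18 and 0.22. For a graded change over 0, 1 and 2 deleted copies, 0 of 7 genes passed in limma, against 1.02%. Every 95% interval of the slope lay between -0.06 and 0.09 log2 per copy, and Idi1 had a slope of 0.03 ± 0.02 (unadjusted p = 0.0297, adjusted p = 0.344). WT brains enter KO against WT and HET against WT alike, so the comparisons are not independent.

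**Figure D2:**
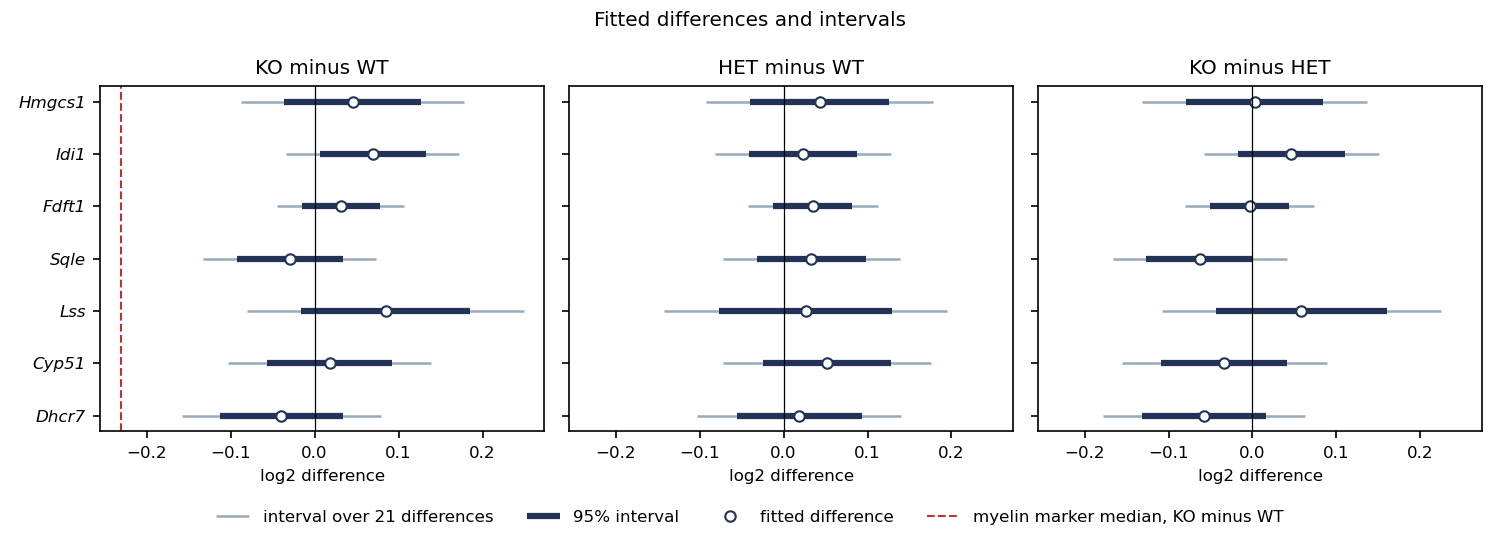
Fitted log2 differences (horizontal axis, limma) of the 7 enzymes for KO minus WT, HET minus WT and KO minus HET, with 95% intervals as thick bars and the wider intervals over 21 differences as thin lines. The dashed line is the median KO minus WT difference of 12 myelin markers (-0.23), and all 7 intervals of either width lie to its right.

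In these KO brains genes of myelin were lower. Of the 7 enzymes 0 fell, which is near the share of all genes that did so (0.722%). Of 12 oligodendrocyte and myelin markers, 11 fell, 0 rose and 1 did not pass, with a median of -0.23 (-14.8%), where 0.722% of all genes fell and 0.279% rose. Their mean over the list ran from 9.54 to 9.73 in WT brains and from 9.25 to 9.53 in KO brains. Opalin, a glycoprotein of myelinating oligodendrocytes, fell by 0.49 ± 0.08 (limma adjusted p = 5.25e-04), and Ermn, a cytoskeletal protein of the same cells, fell by 0.31 ± 0.04 (adjusted p = 7.76e-06). For 7 of 7 enzymes the 95% interval, and also the wider one, lay above -0.23, so a fall as large as that median is outside the limits for each of them. That comparison takes the median as a fixed value and leaves out its own error, and the list was chosen with the fall of myelin genes in these mice known. In bulk tissue fewer cells of a type and less RNA per cell cannot be told apart. Which cells the RNA of the 7 enzymes came from was not measured.

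The galactolipid enzymes, the other lipid pathway of myelin, give a second comparison. Of 11 listed genes 5 fell, 0 rose and 6 did not pass, where 0.722% of all genes fell and 0.279% rose. The median over all 11 was -0.10 (-6.74%). Ugt8a, which makes galactosylceramide, fell by 0.39 ± 0.05 (limma adjusted p = 2.06e-05), and Fa2h, which hydroxylates the fatty acids of these lipids, fell by 0.39 ± 0.03 (adjusted p = 2.70e-08). Gal3st1, the sulfotransferase that makes sulfatide, changed by -0.27, the fatty acid elongase Elovl7 by -0.20 and the glycolipid carrier Gltp by -0.14. The difference farthest above 0 was 0.11, for Kdsr, a reductase of ceramide synthesis (not passed). The 95% interval lay above the list median of -0.10 for 6 of 7 enzymes, Dhcr7 being the exception, and the wider interval for 4 of 7, so a change of that size is within the wider limits for Sqle, Cyp51 and Dhcr7. In HET brains 0 of 12 myelin markers and 0 of 11 galactolipid genes passed, against 0.00422% of all genes tested (1 gene), so 0 is near that share. All 12 of 12 myelin markers were below 0 (median -0.09), but they come from the same mice and are not 12 separate observations.

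**Figure D3:**
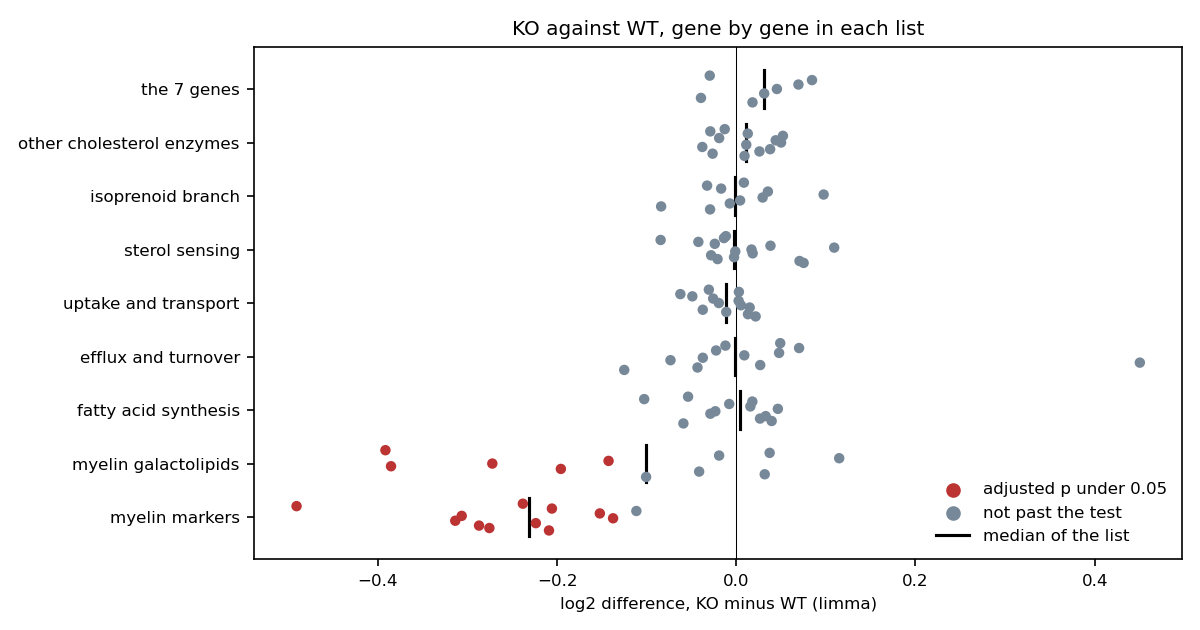
Fitted log2 differences, KO minus WT (horizontal axis, limma), with 1 point per gene for the 7 enzymes, 6 other lists of sterol and lipid genes, the myelin galactolipid list and the myelin markers. Red points have an adjusted p under 0.05 and black bars are list medians. The called genes lie in the last 2 lists, 5 of 11 and 11 of 12.

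The remaining genes of the pathway did not pass either, where 1.00% of all genes tested did so in KO against WT. The lists here and below hold 10 to 15 genes, so 0 calls in each are near that share. Among 13 other cholesterol enzymes 0 passed in KO against WT and the median was 0.01. Members farthest from 0 were the sterol dehydrogenase Nsdhl at 0.05, the sterol oxidase Msmo1 at 0.05 and the mevalonate decarboxylase Mvd at 0.04. In the isoprenoid branch, which draws farnesyl units for ubiquinone, dolichol and protein prenylation, 0 of 10 passed. Pdss1, of the ubiquinone side chain, stood at 0.10, Fnta, the shared subunit of the prenyltransferases, at -0.08, and Pdss2 at 0.04.

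Among 15 genes of sterol sensing and regulation 0 passed, against 1.00% of all genes, with a median of 0.00. The NF-Y subunit Nfyb stood at 0.11 ± 0.04 (limma adjusted p = 0.191), Srebf1, which encodes an SREBP factor, at -0.08, and Erlin1 at 0.08. Among 13 genes of uptake and intracellular transport 0 passed, with a median of -0.01. The sterol carrier Stard3 of late endosomes stood at -0.06, the lysosomal membrane protein Scarb2 at -0.05 and the lipoprotein receptor Lrp1 at -0.04.

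Among 12 genes of efflux, esterification and turnover 0 passed, against 1.00% of all genes. Ch25h, a sterol hydroxylase, had the largest difference of all these lists at 0.45 ± 0.27 (adjusted p = 0.547), but its level was low (2.39) and its SD in WT was 0.80. The cholesterol exporter Abca1 stood at -0.13 ± 0.04 (adjusted p = 0.206) and Cyp27a1 at -0.07. Among 12 genes of fatty acid synthesis, many of them SREBP targets, 0 passed, with Scd1, a fatty acid desaturase, at -0.10 (adjusted p = 0.171), Acaca at -0.06 and Scd2 at -0.05. In HET against WT 0 genes passed in any of these lists, against 0.00422% of all genes tested (1 gene).

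The other marker lists held 0 or 1 call each in KO against WT, where 0.279% of all genes rose and 0.722% fell. In lists this small any call lies above those shares. Gfap of astrocytes rose by 0.22 (1 of 8 markers), C1qb of microglia rose by 0.18 (1 of 8), Enpp6 of the oligodendrocyte precursor list fell by 0.43 (1 of 6) and Tek of endothelium fell by 0.21 (1 of 6). Markers of neurons, choroid plexus and blood had 0 of 8, 0 of 6 and 0 of 5, with Syp, Folr1 and Hbb-bt farthest from 0 at 0.06, -0.34 and 0.29. Within the lists with a call, directions were mixed. Of 8 astrocyte markers 3 were above 0 and 5 below, with Sox9 at -0.17 (not passed). Of 8 microglia markers 4 were above 0 and 4 below, the lowest at -0.08. In the precursor list and among the endothelial markers 1 of 6 was above 0 and 5 below. Cldn5 of endothelium was farthest from 0 at -0.44 (limma adjusted p = 0.0567), and the highest endothelial difference was 0.11. The part of these cell types in the values of the 7 enzymes was not tested.

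Between the cohorts 3 of the 7 enzymes differed. Idi1 stood at 7.59 ± 0.09 in cohort 1 (mean ± SD, n = 18) and 7.75 ± 0.04 in cohort 2 (n = 12), a fitted difference, cohort 2 minus cohort 1, of 0.15 ± 0.03 (limma adjusted p = 2.91e-04). Cyp51 was higher in cohort 2 by 0.12 ± 0.03 (adjusted p = 0.00838) and Dhcr7 by 0.10 ± 0.03 (adjusted p = 0.0189). So 3 of 7 were called higher and 0 lower, where 8.09% of all genes were called higher and 9.42% lower. Hmgcs1, Lss, Sqle and Fdft1 did not pass, at -0.00, 0.00, 0.05 and 0.04. All 3 genotypes have the same share of each cohort. The sources do not say what differed between the cohorts.

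**Figure D4:**
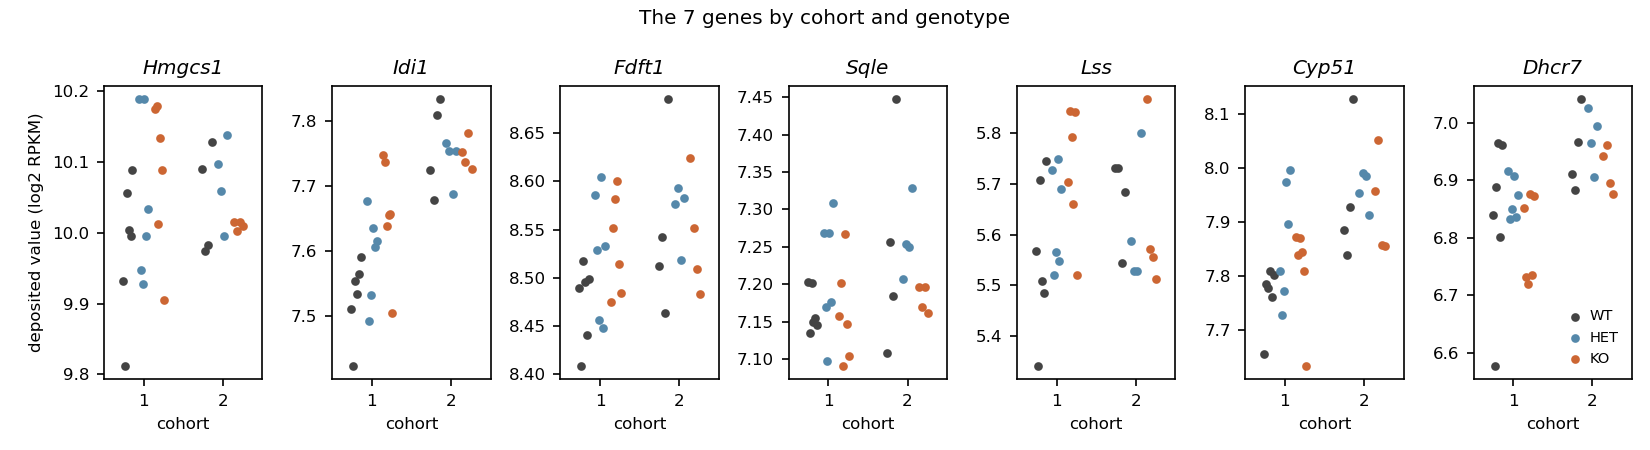
Deposited log2 RPKM values (vertical axis) of the 7 enzymes by cohort (horizontal axis), with 1 point per brain and colour for genotype. Idi1 runs from 7.42 to 7.75 in cohort 1 and from 7.68 to 7.83 in cohort 2, and Hmgcs1 has means of 10.04 in both.

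Within the cohorts the KO minus WT differences had opposite signs for 5 of the 7 genes, without passing a test. In cohort 1 (6 WT, 6 KO) differences of group means were 0.17 for Lss, 0.13 for Idi1 and 0.10 for Hmgcs1, and 5 of the 7 were above 0. In cohort 2 (4 WT, 4 KO) all 7 were below 0, from -0.07 for Sqle to -0.01 for Fdft1, but they come from the same mice and are not 7 separate observations. The test of the difference between cohorts called 0 of 7 genes, against 0.0338% of all genes, and 2 of 7 at an unadjusted p under 0.05, against 8.53%. The interaction, cohort 2 minus cohort 1, was -0.15 ± 0.06 for Idi1 (unadjusted p = 0.0182, limma adjusted p = 0.481) and -0.21 ± 0.10 for Lss (0.0385, adjusted p = 0.555). Idi1 group means were 7.53 in WT and 7.66 in KO of cohort 1, and 7.76 and 7.75 in cohort 2.

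Between the sexes no enzyme passed. All 7 enzymes were higher in males in the fit, with 0 of 7 called, against 0.333% of all genes, and 2 of 7 at an unadjusted p under 0.05, against 12.5%. The genes share the same mice and vary together, so this shared sign is not 7 separate observations. Lss stood at 5.57 ± 0.10 in 15 females and 5.71 ± 0.12 in 15 males, a difference of 0.14 ± 0.04 (limma adjusted p = 0.121). Fdft1 differed by 0.06 ± 0.02 (adjusted p = 0.139). The KO minus WT difference did not pass a test of difference between the sexes for any of the 7, nor for any of the 23695 genes. At an unadjusted p under 0.05, 2 of 7 passed, against 7.10%. They were Dhcr7, at -0.16 ± 0.07 in males minus females (unadjusted p = 0.0252, limma adjusted p = 0.652), and Sqle, at -0.13 ± 0.06 (0.0395, adjusted p = 0.680). In males Dhcr7 was 6.92 in WT and 6.82 in KO, and in females 6.84 and 6.87.

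Across brains the 7 enzymes varied together. After genotype, sex, cohort and RIN were removed by the fit, all 21 pairs of genes had a positive correlation over the 30 brains, with Pearson r between 0.11 and 0.84 and a median of 0.45. By permutation (100000 resamples, two-sided, Benjamini-Hochberg over 21 pairs), 13 of 21 pairs passed for r and 7 of 21 for Spearman's rho. The permutation treats the residuals as 30 free values and takes no account of the terms already fitted. Its p values for residuals, here and below, therefore tend to be too small, and so these counts tend to be too high. Pairs of other genes were not tested in this way, so no share over all genes stands beside the counts of pairs. On the deposited values, with no term removed, 18 pairs passed for r and 16 for rho. Within cohort 1 (18 brains) 20 of 21 correlations were positive, with a median of 0.46, and within cohort 2 (12 brains) 19 of 21, with a median of 0.48.

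Hmgcs1 and Idi1 were the closest pair. Their residuals had r = 0.84 and rho = 0.80 (both permutation p = 1e-05, the smallest that these resamples can give, adjusted p = 1.05e-04), and r was 0.79 without the 2 brains farthest from the median of Hmgcs1. It was 0.90 in cohort 1 and 0.66 in cohort 2. Lss followed Hmgcs1 at r = 0.75 (rho = 0.74, adjusted permutation p = 1.05e-04) and Idi1 at r = 0.66 (rho = 0.61, adjusted permutation p = 4.20e-04 for r and 0.00343 for rho). Sqle and Fdft1 had r = 0.62 (adjusted permutation p = 0.00289) but rho = 0.33 (adjusted permutation p = 0.137), and r fell to 0.25 without the 2 brains farthest from the median of Sqle, so that relation rests on them. The lowest r of residuals was that of Dhcr7 and Cyp51, at 0.11 (rho = 0.15, adjusted permutation p = 0.567), with -0.05 in cohort 1 and 0.62 in cohort 2. On the deposited values the same pair had r = 0.49 (rho = 0.56, adjusted permutation p = 0.0101). By rho the lowest pair was Lss and Cyp51, at 0.14.

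**Figure D5:**
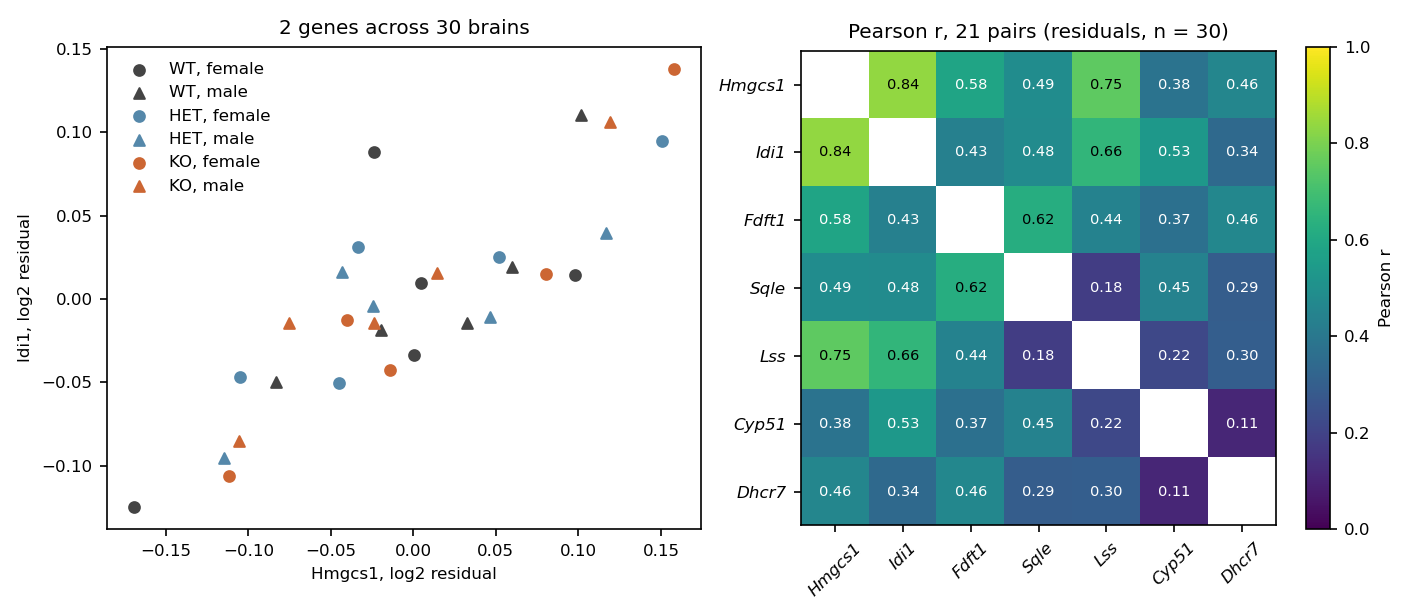
Left, residuals of Idi1 (vertical axis, log2) against those of Hmgcs1 (horizontal axis, log2) in the 30 brains after genotype, sex, cohort and RIN, with colour for genotype and shape for sex (r = 0.84). Right, Pearson r of residuals for the 21 pairs of the 7 enzymes on a colour scale from 0 to 1, from 0.11 for Dhcr7 and Cyp51 to 0.84 for Hmgcs1 and Idi1.

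A pair of WT brains lay at the ends of this shared variation. Averaged over the 7 genes as z-scores of residuals, WT replicate 3, a female of cohort 1, was lowest at -1.45 with 6 of 7 genes below 0, and WT replicate 10, a male of cohort 2, was highest at 1.78 with 7 of 7 above 0. HET brains ran from -1.19 to 1.26 and KO brains from -0.83 to 1.1. With both WT brains left out, a choice made after seeing the data, 8 of 21 pairs passed for r and 6 for rho, and the median r was 0.38. Within cohort 2 the median r was then 0.15, with 12 of 21 pairs positive. The largest 95% limit of KO minus WT was 0.16 without them and 0.19 with them.

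The residual SD between brains was 0.05 for Fdft1, 0.07 for Sqle and Idi1, 0.08 for Dhcr7 and Cyp51, 0.09 for Hmgcs1 and 0.11 for Lss. Set beside the 500 genes nearest in level, Hmgcs1 varied more than 80.0% of them and Cyp51 more than 75.8%, while Fdft1 varied more than 35.4%. The 4 others lay between 49.8% and 59.8%.

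The myelin marker mean did not pass a test of correlation with the 7 enzymes in the residuals. Pearson r lay between -0.00 for Fdft1 and 0.45 for Dhcr7 over the 30 brains, and 0 of 7 passed by permutation with adjustment over 7. An unadjusted permutation p under 0.05 for r was found for 5 of 7 (adjusted p = 0.0657 for each of the 5). These p values for residuals tend to be too small, because the permutation takes no account of the fitted terms, so the 5 may be too many. Dhcr7 had rho = 0.39 (permutation p = 0.0105 for r). Within cohort 1 r was 0.61 for Hmgcs1 and 0.62 for Idi1, and within cohort 2 it was -0.13 and 0.02. On the deposited values Dhcr7 passed, with r = 0.49 and rho = 0.53 (permutation, adjusted p = 0.0388 and 0.0188), 0.53 without the 2 farthest brains, and 0.37 in cohort 1 and 0.40 in cohort 2. With both extreme WT brains left out, Cyp51 passed in the residuals at r = 0.50 and rho = 0.59 (permutation, adjusted p = 0.0459 and 0.00812). So the relation of the enzymes to the myelin markers depends on which terms and brains are kept.

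Genes outside the 7 were ranked by how closely their residuals followed the mean z-score of the 7 over the 30 brains, as a description with no test, among 23688 genes that share the same libraries. Mvd, the decarboxylase that makes isopentenyl diphosphate for Idi1, came first with r = 0.82, and Insig1, the sterol-regulated anchor of SCAP, followed with r = 0.77. Msmo1, which acts after Cyp51, was seventh in rank with r = 0.71. Others of the first 8 by this rule were Ighm, an immunoglobulin heavy chain (0.77), Arl16, a small GTPase (0.74), Spock3, a secreted proteoglycan (0.73), and the transcript AW822252 (0.70). Mvd overlaps Gm20388 and Spock3 overlaps Gm24236.

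The ranking depended on the terms and on the brains kept. On the deposited values Mvd (rank 2), Insig1 (4), Msmo1 (3) and Arl16 (1) were the first 4, whereas Ighm fell to rank 171 and AW822252 to rank 5887 with r = 0.19. Without the pair of extreme WT brains, Insig1 was first with r = 0.84, Mvd second with 0.77 and Spock3 had rank 5 with 0.71. Ighm then had rank 13 (0.67), Arl16 rank 21 (0.64), Msmo1 rank 26 (0.63) and AW822252 rank 40 (0.61). KO minus WT differences of the named neighbours did not pass, from -0.02 for Insig1 to 0.20 for Ighm (limma adjusted p = 0.387).

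By list, the other cholesterol enzymes were closest to the 7. Of 13, 6 were among the 236 genes that make up the first 1% by r: Mvd, Msmo1, Mvk, Hsd17b7, Acat2 and Sc5d, with r from 0.60 to 0.82. The median r of the 13 was 0.48, beside 0.00 for all genes. Fatty acid genes had a median of 0.22 with Fasn, the fatty acid synthase, among the first 1% (0.53). Sterol sensing genes had a median of 0.12 with Insig1 there, and uptake genes -0.02 with the sterol carrier Stard4 (0.59). Median r was 0.19 for the galactolipid list, 0.05 for the isoprenoid branch and -0.05 for efflux and turnover, and 0 genes of these lists were among the first 1%.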

How the data were processed

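RNA of the cerebral hemispheres of 30 mice was sequenced and aligned with TopHat2 2.0.12 and Bowtie 1.1.0 to mm10, per the submitters' processing notes. The authors deposited 1 table, whose name and header give its values as log2 RPKM (reads per length and library size) corrected by conditional quantile normalization for length and GC content. Not given in the sources used here were the counting tool, the annotation and the strand setting. These values carry no counts, so read depth is unknown and precision was judged from the spread between mice. Library medians lay between 2.82 and 2.91, and Pearson r between any pair of libraries over the genes kept lay between 0.971 and 0.987.

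Samples were grouped by the genotype label. Genes with a mean deposited value above 0 (23695) were fitted in limma 3.58.1 (R 4.3.3) over all 30 mice with terms for genotype, sex, cohort and RNA integrity number (RIN) and no pseudocount. The moderated test (eBayes with trend) was two-sided. WT, HET and KO had a mean RIN of 9.40, 9.23 and 9.35, with SD of 0.28, 0.22 and 0.49. P values were adjusted by Benjamini-Hochberg over all genes kept. The words rose and fell are used at an adjusted p under 0.05. The script was tested on simulated data.

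The genes, the 7 pathway lists and the marker lists were chosen with earlier results of these data known. Named genes are Tmem106b, the 7 enzymes, the called genes and up to 3 with the largest KO against WT difference of each list (up to 2 for markers), and the 8 genes closest in pattern. Kdsr, and genes named for an overlap, for the absence of liver or steroid-making cells, or as the list members among the first 1% by likeness are beyond that rule. Of the 8 closest, 1 is not reported here. Alternatives covered filters, terms, weights, scaling, subsets of mice and each mouse left out.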

Additional observations from a re-analysis of the deposited data

Results flagged for a closer look

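Among the 21 groups of values (7 genes in 3 genotypes), 4 held a brain whose gap to the next one was large against the range of its group. Large means above Dixon's 95% critical value for 10 samples, which chance gives in about 1 in 20 independent, normal groups. The 7 genes share the same brains and each group mixes cohorts and sexes, so no excess over that rate can be read from the 4. Sqle in WT had its highest value in replicate 10, at 7.45, with the next brain at 7.26. Fdft1 in WT had its highest value in the same brain, at 8.68, with the next at 8.54. Dhcr7 in WT had its lowest value in replicate 3, at 6.58, with the next at 6.80. Idi1 in KO had its lowest value in replicate 8, at 7.50, with the next at 7.64. Of the 28 tests of a genotype difference between sexes or cohorts, 0 passed after adjustment over all genes.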

How the results depend on the processing

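In each comparison, 0 of 7 enzymes passed in all 15 other settings and with each of the 30 mice left out in turn. The lowest adjusted p of these was 0.129, for Idi1 in KO against WT. The largest 95% limit for KO against WT lay between 0.16 and 0.29, with 0.29 in cohort 1 alone. It lay between 0.13 and 0.22 for HET against WT and between 0.16 and 0.27 for KO against HET. With 1 mouse left out the limits lay between 0.16 and 0.21, 0.12 and 0.15, and 0.14 and 0.19.

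KO minus WT differences of single enzymes moved with 1 mouse left out and kept their sign: 0.024 to 0.060 for Hmgcs1 (lowest without KO replicate 1, then 0.026 without WT replicate 3), 0.051 to 0.083 for Idi1, 0.019 (without KO replicate 5) to 0.046 for Fdft1, -0.046 (without KO replicate 5) to -0.0060 (without WT replicate 10) for Sqle, 0.061 to 0.109 for Lss, 0.0017 (without WT replicate 2) to 0.041 (without WT replicate 10) for Cyp51 and -0.069 (without WT replicate 3) to -0.024 (without WT replicate 5) for Dhcr7.

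Small differences changed sign, with the cause not tested. In cohort 2 alone, KO minus WT was -0.037 for Hmgcs1, -0.019 for Idi1, -0.031 for Lss, -0.0063 for Fdft1 and -0.025 for Cyp51. There HET minus WT was -0.039 for Idi1, -0.024 for Lss and -0.011 for Cyp51, and KO minus HET was -0.055 for Hmgcs1 and -0.00685 for Lss. In females alone, KO minus WT was 0.048 for Sqle, 0.051 for Dhcr7 and -0.013 for Cyp51, and KO minus HET was 0.00724 for Fdft1. In males alone, HET minus WT was -0.027 for Dhcr7 and KO minus HET -0.0099 for Hmgcs1. Fdft1 in KO minus HET was 0.014 in cohort 1 alone and 0.0034 with array weights. Hmgcs1 there was -0.00302 with genotype alone and -0.00302 without RIN. Dhcr7 in HET minus WT was -0.0049 with only the 2 groups compared. With 1 mouse left out, signs changed for Dhcr7 in HET minus WT (-0.0090 to 0.036, below 0 without WT replicate 3), Hmgcs1 in KO minus HET (-0.014 to 0.024) and Fdft1 in KO minus HET (-0.019 to 0.0077).

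With WT replicates 3 and 10 left out, chosen after seeing the data, 8 pairs of enzymes were correlated instead of 13. Over all genes, KO against WT calls were 237 in the fit used but 144 when genotype was the one term, 114 when HET was left out, 485 in cohort 1 alone, 4 in cohort 2 alone, 13 in females alone and 19 in males alone. No paired analysis was possible because the labels pair no mice. The labels also give no replicate number, and the numbers used here follow the order of the samples. Read depth is unknown, so counting error could not be set apart from the spread between mice.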
